A study of Homo sapiens with 16 samples.

Results

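The MYC, MAX and MXD network is represented here by 10 genes, MYC, MAX, MXD1, MXD3, MXD4, MXI1, MNT, MGA, MLX and MLXIP, out of 58676 genes in the count tables. The genes were taken by name, and the set was chosen on the measured rise of MXD4 counts with palbociclib in these libraries. For that reason the comparison of palbociclib with untreated cells is described below without a test. The effect of palbociclib is tested between the combination and indisulam alone, whose libraries are not in that comparison, although the genes were chosen with earlier results of all libraries known. The other comparisons share untreated or palbociclib libraries with it. All 10 genes passed the filter on low counts in both cell lines.

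RNA was sequenced from A549, a lung cancer line, and from SUM159, a triple negative breast cancer line, each grown in its own medium. Cells were left untreated (UT), or received 2 µM palbociclib (PD), which inhibits the cell cycle kinases CDK4 and CDK6, 3 µM indisulam (IN), a sulfonamide that brings the splicing factor RBM39 to the DCAF15 ubiquitin ligase for degradation, or both drugs (P+I). The treatment lasted 16 h, and each of the 8 groups had 2 libraries, which the series describes as technical duplicates. The p-values therefore measure the spread between these libraries and not between independent cultures, and each line stands for itself only. In bulk RNA, fewer cells with a transcript and less transcript per cell cannot be told apart.

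MYC binds DNA as a dimer with MAX at E-boxes, mainly CACGTG, and raises genes of growth, ribosome production and metabolism. MXD1, MXD3, MXD4, MXI1 and MNT compete for MAX and bring the SIN3 histone deacetylase complex to the same sites, while MGA joins MAX in the repressive complex PRC1.6. MLX is the partner of MLXIP, also called MondoA, a glucose-sensing factor, and can also pair with some MXD proteins and MNT.

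Each library held 18306636 to 34075588 counts assigned to genes, so that 3 counts correspond to 0.0880 to 0.164 counts-per-million (CPM). Of 7 markers of A549, 7 reached a mean of 5 CPM in A549 (summed 20120 to 30705 CPM) and 4 did so in SUM159, and the 5 markers of SUM159 summed to 7751 to 9488 CPM in SUM159 against 2239 to 2489 CPM in A549. A list of 7 genes held hormone receptors and markers of blood, endothelial and nerve cells. Of these, 0 reached 5 CPM in A549, with PGR and CD3E at 0 counts in every library, and 1, PECAM1, did so in SUM159. Reads in no annotated feature made up 3.89% to 4.57% of reads in untreated libraries and 4.83% to 6.78% in libraries with indisulam or the combination. With palbociclib alone they made up 4.17% and 4.71% in A549 and 4.96% and 5.45% in SUM159, above the untreated SUM159 libraries, and their part in the results below was not tested.

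The windows of 250 bases before the RefSeq start sites (GRCh38.p14) of MXD4 and MXD3 are shown, since these are the members whose levels moved most, and in opposite directions. Capitals mark the E-box CACGTG, searched on both strands, which are identical for this motif.
MXD4, chr4:2262110-2262359, minus strand: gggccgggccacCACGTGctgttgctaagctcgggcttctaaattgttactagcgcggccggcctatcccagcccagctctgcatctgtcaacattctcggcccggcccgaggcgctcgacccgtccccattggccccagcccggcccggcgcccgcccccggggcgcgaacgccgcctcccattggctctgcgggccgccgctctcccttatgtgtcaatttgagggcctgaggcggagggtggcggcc
MXD3, chr5:177312753-177313002, minus strand: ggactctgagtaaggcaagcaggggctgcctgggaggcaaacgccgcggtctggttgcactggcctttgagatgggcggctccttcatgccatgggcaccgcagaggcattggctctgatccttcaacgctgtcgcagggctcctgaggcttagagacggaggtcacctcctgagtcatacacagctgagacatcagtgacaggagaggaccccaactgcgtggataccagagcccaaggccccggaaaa
The MXD4 window holds 1 E-box, which begins 238 bases before the start site, and the MXD3 window holds none. Of the 14 RefSeq windows found for 9 of the members, 3 hold the E-box, those of MXD4, MNT (193 bases before the start) and MLX (50 bases before the start), against 6.34% of 35116 windows of the same length. The motif TTTCCCGC, a form of the E2F site, is in 1.39% of all windows and in none of the members' windows. The related TTTGGCGC (0.55% of all windows) and the CHR element TTTGAA (13.3%) are each in 1 member window, that of MGA. A match describes letters only and no binding was measured.

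MXD4 (ENSG00000123933, GRCh38 chromosome 4, 2247432 to 2262109) encodes a MAX partner that represses E-box genes and is linked to differentiating and resting cells. In A549 it was at 14.6 and 13.1 CPM without drug, 49.9 and 52.9 CPM with palbociclib, 18.7 and 19.2 CPM with indisulam, and 51.0 and 45.6 CPM with both drugs. In SUM159 the corresponding levels were 31.9 and 32.4 CPM, 101.4 and 113.8 CPM, 40.8 and 40.9 CPM, and 119.7 and 119.9 CPM. In both lines every library with palbociclib, alone or with indisulam, lay above every library without it. Such a separation of the 4 libraries with palbociclib from the 4 without, in either direction, was seen for 23.7% of all genes tested in A549 and 36% in SUM159. MXD4 shares 80 exon bases with MIR4800 on the same strand, which had 0 counts in all libraries.

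**Figure D1:**
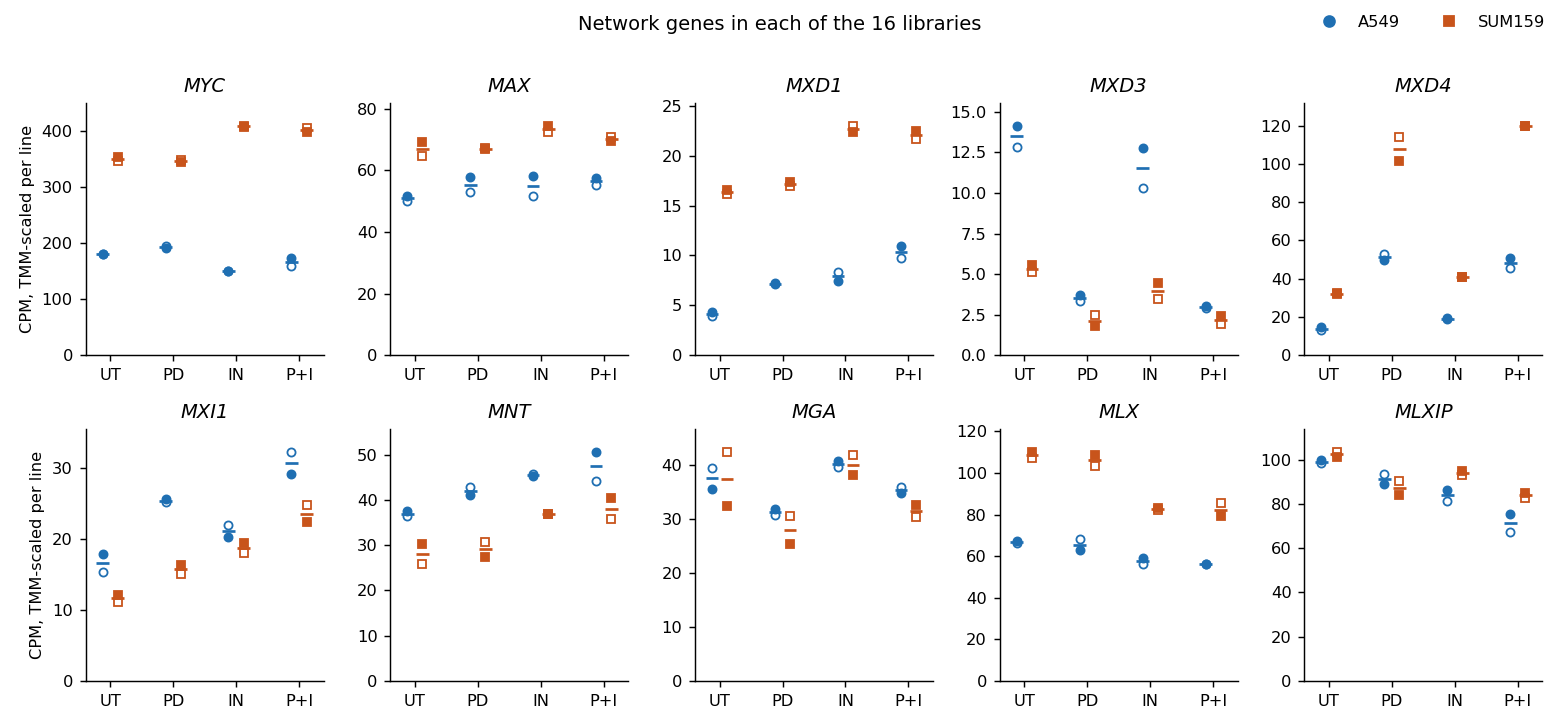
CPM, scaled by TMM within each line (vertical axis, linear from 0), of the 10 genes in untreated (UT), palbociclib (PD), indisulam (IN) and combination (P+I) libraries of A549 (circles) and SUM159 (squares). Filled and open symbols are the 2 libraries of a group and bars their mean, and MXD4 is highest, and MXD3 lowest, in the groups with palbociclib.

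The rise of MXD4 with palbociclib alone was the reason for the choice of the set and is given as a description, a log2 change of 1.89 in A549, where it ranked 1 of 10731 genes averaging 5 CPM or more, and of 1.74 in SUM159, where it ranked 13 of 10641. When palbociclib was added to indisulam, MXD4 rose by 1.35 on the log2 scale in A549 (SE 0.0744, edgeR adjusted p = 2.12e-09), rank 10 of 10731. In SUM159 it rose by 1.55 (SE 0.0531, edgeR adjusted p = 1.78e-13), rank 14 of 10641. Neither call was lost without any one of the libraries or under any other setting tried. The set was picked for a rise of MXD4 with palbociclib, with earlier results of all libraries known. These tests are therefore no independent support for that rise. The difference between the lines in this response was 0.27 on the log2 scale (SE 0.0948) and missed the threshold (edgeR adjusted p = 0.0629), although it passed when only the libraries of the groups compared were fitted (0.28, edgeR adjusted p = 0.0300).

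Indisulam alone was followed by a smaller rise of MXD4, by 0.45 on the log2 scale in A549 (SE 0.0904, edgeR adjusted p = 0.000925) and by 0.34 in SUM159 (SE 0.0634, edgeR adjusted p = 0.000274). These comparisons share their untreated libraries with the comparison through which MXD4 was picked. Indisulam added to palbociclib moved it by -0.09 in A549 (SE 0.0654, edgeR adjusted p = 0.247) and by 0.15 in SUM159 (SE 0.0476, edgeR adjusted p = 0.0142), in a comparison that shares the palbociclib libraries with the one that picked MXD4. The SUM159 value missed the threshold without the first palbociclib library (0.06, edgeR adjusted p = 0.268), without either combination library (0.15, edgeR adjusted p = 0.0669 and 0.0686) and with DESeq2 (0.14, adjusted p = 0.0647).

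MXD3 (ENSG00000213347, chromosome 5, 177301461 to 177312757) is the family member known from proliferating cells, where it is expressed around S phase. In A549 it was at 14.1 and 12.8 CPM untreated, 3.73 and 3.36 CPM with palbociclib, 12.8 and 10.3 CPM with indisulam, and 3.03 and 2.90 CPM with both. In SUM159 it was at 5.54 and 5.12 CPM, 1.80 and 2.47 CPM, 4.45 and 3.47 CPM, and 2.40 and 1.94 CPM. Its libraries with palbociclib lay below all libraries without it in both lines, the mirror image of MXD4. Of all genes tested, 23.7% in A549 and 36% in SUM159 were separated by palbociclib in this way, in either direction.

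With palbociclib alone, MXD3 had a log2 change of -1.94 in A549 and of -1.29 in SUM159. Palbociclib added to indisulam moved MXD3 by -1.96 on the log2 scale in A549 (SE 0.146, edgeR adjusted p = 8.11e-08), and this was the largest fall of any member. In SUM159 the change was -0.85 (SE 0.185, edgeR adjusted p = 0.000975). The fall was smaller in SUM159 by 1.18 on the log2 scale (SE 0.252, edgeR adjusted p = 0.00227 for the difference between lines), a call lost without the first SUM159 combination library (1.00, edgeR adjusted p = 0.0501). Indisulam alone gave -0.23 in A549 (SE 0.114, edgeR adjusted p = 0.115), which passed without the first A549 indisulam library (-0.38, edgeR adjusted p = 0.0335). In SUM159 it gave -0.44 (SE 0.165, edgeR adjusted p = 0.0391), which missed the threshold without either untreated library or without the second indisulam library (edgeR adjusted p = 0.183, 0.0729 and 0.330), with DESeq2 (adjusted p = 0.140) and with total-count scaling (edgeR adjusted p = 0.0673). MXD3 shares 926 exon bases with RAB24 on the same strand and 1148 with PRELID1 on the other strand, and the authors' strand setting is not stated, so its counts are uncertain.

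The opposite movements are summed up by the ratio of MXD4 to MXD3 within a library, in counts per kilobase of exon. In A549 this ratio was 0.713 and 0.705 without drug, 9.25 and 10.9 for palbociclib, 1.01 and 1.28 for indisulam, and 11.6 and 10.8 for the combination. In SUM159 it was 3.97 and 4.37, 38.9 and 31.8, 6.34 and 8.13, and 34.4 and 42.7. Groups with and without palbociclib did not overlap in either line. MXD4 was picked for its rise with palbociclib alone, so this separation follows in part from the choice and is a description. The ratio also carries the uncertainty of the MXD3 counts.

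**Figure D2:**
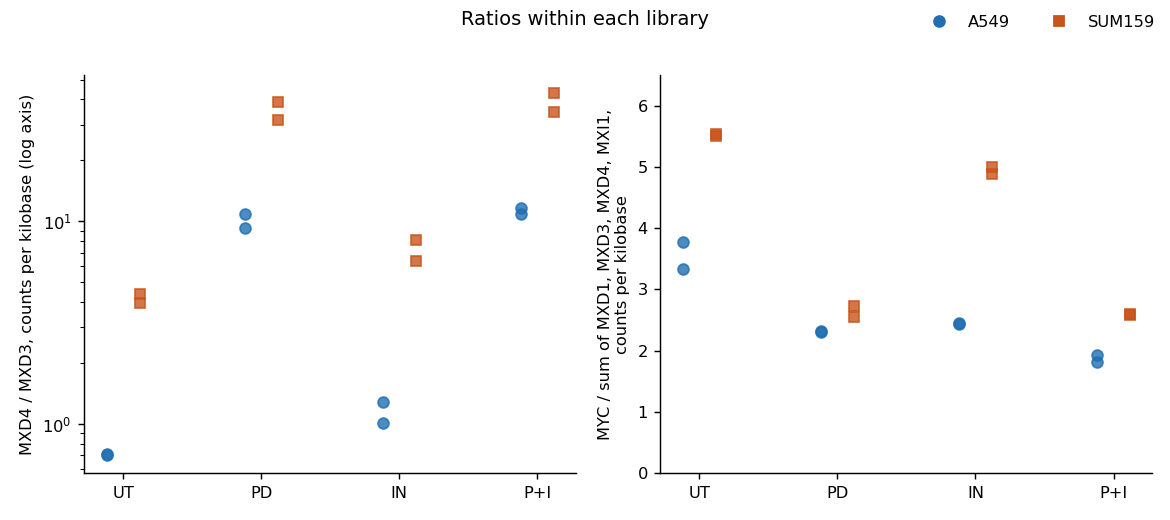
Ratios of gene levels in counts per kilobase of merged exons within each library of A549 (circles) and SUM159 (squares), by treatment. Left, MXD4 to MXD3 on a log axis, from 0.705 in untreated A549 to 42.7 in SUM159 with both drugs, and right, MYC to the summed MXD1, MXD3, MXD4 and MXI1 on a linear axis from 0, which lies below the untreated libraries in all treated ones.

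MXI1 (ENSG00000119950, chromosome 10, 110207605 to 110287365), another MAX partner that represses MYC targets, was at 17.8 and 15.3 CPM in untreated A549, 25.6 and 25.2 CPM with palbociclib, 20.3 and 22.0 CPM with indisulam, and 29.1 and 32.3 CPM with both. Its SUM159 levels were 12.1 and 11.2 CPM, 16.4 and 15.05 CPM, 19.5 and 17.9 CPM, and 22.4 and 24.7 CPM. The mean was lowest in untreated and highest in combination libraries in both lines. How many of all genes showed this order was not counted. Palbociclib added to indisulam raised MXI1 by 0.54 on the log2 scale in A549 (SE 0.0816, edgeR adjusted p = 0.000123) and by 0.33 in SUM159 (SE 0.0755, edgeR adjusted p = 0.00142). Indisulam alone raised it by 0.35 in A549 (SE 0.0907, edgeR adjusted p = 0.00535) and by 0.68 in SUM159 (SE 0.0903, edgeR adjusted p = 1.05e-05). The A549 call for indisulam was lost without the second untreated library (0.25, edgeR adjusted p = 0.0718) or the second indisulam library (0.30, edgeR adjusted p = 0.0545). The combination stood above untreated cells by 0.89 in A549 (SE 0.0874, edgeR adjusted p = 6.76e-07) and by 1.01 in SUM159 (SE 0.0863, edgeR adjusted p = 1.85e-08). With palbociclib alone the described changes were 0.61 and 0.43.

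MXD1 (ENSG00000059728, chromosome 2, 69897688 to 69942945), the first described MAX partner of this repressive kind, was the lowest member per length in untreated A549. It was at 4.34 and 3.94 CPM in untreated A549, 7.26 and 7.10 CPM with palbociclib, 7.44 and 8.38 CPM with indisulam, and 10.9 and 9.69 CPM with both. The SUM159 libraries were at 16.6 and 16.2 CPM, 17.4 and 17.0 CPM, 22.4 and 23.0 CPM, and 22.4 and 21.7 CPM. The A549 levels were lowest untreated and highest with both drugs. In both lines every library with indisulam lay above every library without it, narrowly so in A549. Such a separation, in either direction, was seen for 34.8% of all genes tested in A549 and 26.1% in SUM159.

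Indisulam alone raised MXD1 by 0.93 on the log2 scale in A549 (SE 0.136, edgeR adjusted p = 5.74e-05) and by 0.47 in SUM159 (SE 0.0696, edgeR adjusted p = 3.32e-05). The difference between lines, -0.46 (SE 0.147, edgeR adjusted p = 0.0365), was lost without any 1 of 7 of the 8 libraries compared (edgeR adjusted p = 0.0524 to 0.167), with DESeq2 (adjusted p = 0.0990), with total-count scaling (edgeR adjusted p = 0.0550) and with no filter on low genes (edgeR adjusted p = 0.135). Palbociclib added to indisulam gave 0.38 in A549 (SE 0.111, edgeR adjusted p = 0.0134) and -0.04 in SUM159 (SE 0.0625, edgeR adjusted p = 0.631). The A549 call was lost without the first indisulam library (0.30, edgeR adjusted p = 0.132), without the first combination library (0.32, edgeR adjusted p = 0.0744) and with DESeq2 (0.40, adjusted p = 0.0871). The difference between lines in this response, -0.36 (SE 0.121, edgeR adjusted p = 0.0487), did not pass without any 1 of 6 of the 8 libraries (edgeR adjusted p = 0.0542 to 0.117), with DESeq2 (adjusted p = 0.0660), with no filter on low genes (edgeR adjusted p = 0.0728), with the replicate block (edgeR adjusted p = 0.0563) or with only the groups compared (edgeR adjusted p = 0.0810). MXD1 shares 237 exon bases with SNRNP27 on the same strand.

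MYC (ENSG00000136997, chromosome 8, 127735434 to 127742951), the activating member, was the most highly expressed member per length in both lines. In A549 it was at 179.7 and 180.9 CPM untreated, 190.3 and 195.3 CPM with palbociclib, 149.5 and 149.7 CPM with indisulam, and 173.1 and 158.2 CPM with both. SUM159 had 352.8 and 346.6 CPM, 343.8 and 347.3 CPM, 409.1 and 407.0 CPM, and 398.0 and 404.8 CPM. Indisulam libraries thus lay below the untreated ones in A549 and above them in SUM159, and palbociclib and untreated libraries overlapped in SUM159.

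The log2 change of MYC with indisulam was -0.27 in A549 (SE 0.0464, edgeR adjusted p = 0.000247) and 0.22 in SUM159 (SE 0.0330, edgeR adjusted p = 3.39e-05). The difference between the lines, 0.49 (SE 0.0567, edgeR adjusted p = 2.16e-06), held without each library in turn and under all other settings tried. The same opposite signs were seen when indisulam was added to palbociclib, -0.22 in A549 (SE 0.0455, edgeR adjusted p = 0.00102) and 0.22 in SUM159 (SE 0.0327, edgeR adjusted p = 3.85e-05), in libraries shared with the palbociclib comparison. Palbociclib moved MYC little, with described changes of 0.10 in A549 and -0.02 in SUM159. Added to indisulam it gave 0.15 in A549 (SE 0.0462, edgeR adjusted p = 0.0209), a call lost without either indisulam library or without the first combination library (edgeR adjusted p = 0.115, 0.112 and 0.132), and -0.02 in SUM159 (SE 0.0326, edgeR adjusted p = 0.565).

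In untreated A549, MYC stood at 3.34 and 3.78 times the summed counts per kilobase of MXD1, MXD3, MXD4 and MXI1. It stood at 2.30 and 2.32 times with palbociclib, 2.44 and 2.45 times with indisulam, and 1.93 and 1.82 times with both. In SUM159 the ratios were 5.51 and 5.54, 2.73 and 2.55, 4.89 and 4.99, and 2.58 and 2.60. Every treated library lay below the untreated ones of its line. MNT, also a repressive MAX partner, was left out of this sum. In untreated A549 it averaged 4.39 CPM per kilobase of merged exons, against 2.94 for MXD3. MXD4 alone made up 24.1% and 24.4% of the summed MXD1, MXD3, MXD4 and MXI1 level in untreated A549 and 46.6% to 55.8% in the libraries with palbociclib. In SUM159 its share was 44.3% and 46.1% in untreated cells and 68.5% to 74.3% with palbociclib. MXD4 was picked for its rise with palbociclib alone, so the lower ratio and larger share in those libraries are a description. These are levels of RNA per length, and protein was not measured.

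MAX (ENSG00000125952, chromosome 14, 65006174 to 65102695), the shared dimer partner, was the steadiest member, at 50.1 to 58.2 CPM in the 8 A549 libraries and 64.7 to 74.5 CPM in those of SUM159. It shares 822 exon bases with FNTB on the other strand, which had 185 to 567 counts, and the authors' strand setting is not stated. In libraries with indisulam, palbociclib gave 0.04 in A549 (SE 0.0650, edgeR adjusted p = 0.650) and -0.07 in SUM159 (SE 0.0451, edgeR adjusted p = 0.239). Among the comparisons tested within a line, the single call for MAX was with indisulam in SUM159, 0.13 (SE 0.0469, edgeR adjusted p = 0.0276), and it was lost without the second untreated library or without either indisulam library (edgeR adjusted p = 0.287, 0.158 and 0.0519) and with DESeq2 (adjusted p = 0.141), DESeq2 size factors (edgeR adjusted p = 0.0521) or no filter (edgeR adjusted p = 0.0533). For the combination against untreated cells, MAX missed the threshold at 0.15 in A549 (SE 0.0669, edgeR adjusted p = 0.0683) and 0.07 in SUM159 (SE 0.0467, edgeR adjusted p = 0.215). The A549 value passed with total-count scaling, the replicate block or only the groups compared (edgeR adjusted p = 0.00644, 0.0342 and 0.0380), and the SUM159 value with total-count scaling or at least 10 counts in every library (edgeR adjusted p = 0.000542 and 0.0439).

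MNT (ENSG00000070444, chromosome 17, 2384073 to 2401104), a widely expressed MAX partner that opposes MYC, was at 36.4 to 42.8 CPM in A549 without indisulam and 44.1 to 50.6 CPM with it. In SUM159 it was at 25.9 to 30.7 CPM without and 35.8 to 40.3 CPM with indisulam. The 2 ranges did not overlap in either line, a separation by indisulam seen for 34.8% of all genes tested in A549 and 26.1% in SUM159. Indisulam alone raised MNT by 0.30 on the log2 scale in A549 (SE 0.0682, edgeR adjusted p = 0.00227) and by 0.39 in SUM159 (SE 0.0796, edgeR adjusted p = 0.000639). On top of indisulam, palbociclib gave 0.06 in A549 (SE 0.0652, edgeR adjusted p = 0.493) and 0.05 in SUM159 (SE 0.0726, edgeR adjusted p = 0.578).

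MGA (ENSG00000174197, chromosome 15, 41621134 to 41773081), the MAX partner with a second, T-box DNA binding domain, was at 30.6 to 35.8 CPM in A549 with palbociclib and 35.6 to 40.7 CPM without it. In SUM159 it was at 25.4 to 32.5 CPM with palbociclib and 32.3 to 42.4 CPM without. The ranges overlap slightly in both lines. Between the combination and indisulam, MGA changed by -0.19 in A549 (SE 0.0634, edgeR adjusted p = 0.0310) and -0.34 in SUM159 (SE 0.0972, edgeR adjusted p = 0.00665). The A549 call was lost without any one of the 4 libraries compared (edgeR adjusted p = 0.0556 to 0.175), with DESeq2 (adjusted p = 0.160) and with total-count scaling (edgeR adjusted p = 0.127). The SUM159 call was lost without the second indisulam or second combination library (edgeR adjusted p = 0.0721 and 0.0502) and with DESeq2 (adjusted p = 0.103). Indisulam alone gave 0.10 in both lines (SE 0.0641, edgeR adjusted p = 0.212 in A549, and SE 0.0995, edgeR adjusted p = 0.452 in SUM159).

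MLX (ENSG00000108788, chromosome 17, 42567072 to 42573239) was at 63.0 to 68.1 CPM in A549 without indisulam and 56.2 to 59.2 CPM with it, and at 103.6 to 110.3 CPM against 79.2 to 85.4 CPM in SUM159. Libraries with indisulam lay below all others in both lines. Of all genes tested, 34.8% in A549 and 26.1% in SUM159 were separated by indisulam in this way, in either direction. Indisulam alone moved MLX by -0.21 on the log2 scale in A549 (SE 0.0547, edgeR adjusted p = 0.00473), lost without the second indisulam library (-0.17, edgeR adjusted p = 0.0693), and by -0.39 in SUM159 (SE 0.0462, edgeR adjusted p = 2.82e-06). The addition of palbociclib to indisulam gave -0.04 in A549 (SE 0.0548, edgeR adjusted p = 0.634) and -0.01 in SUM159 (SE 0.0460, edgeR adjusted p = 0.872). MLX shares 775 exon bases with PSMC3IP on the other strand, whose counts ran from 75 to 1260 over the libraries.

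MLXIP (ENSG00000175727, chromosome 12, 122078756 to 122147344) was lower with each drug in A549, going from 98.4 to 99.8 CPM untreated to 89.0 to 93.5 CPM with palbociclib, 81.3 to 86.3 CPM with indisulam and 67.4 to 75.4 CPM with both. The SUM159 ranges were 101.0 to 103.6 CPM, 83.9 to 90.4 CPM, 93.2 to 94.9 CPM and 82.8 to 84.8 CPM. The mean of the untreated libraries was the highest in both lines, and how many of all genes showed this was not counted. The addition of palbociclib to indisulam gave -0.23 in A549 (SE 0.0577, edgeR adjusted p = 0.00561), lost without the first indisulam or second combination library (edgeR adjusted p = 0.0791 and 0.0873). In SUM159 it gave -0.17 (SE 0.0442, edgeR adjusted p = 0.00450), lost with total-count scaling (-0.07, edgeR adjusted p = 0.193). Indisulam alone gave -0.24 in A549 (SE 0.0569, edgeR adjusted p = 0.00278), lost without the second indisulam library (-0.19, edgeR adjusted p = 0.0578). In SUM159 it gave -0.12 (SE 0.0448, edgeR adjusted p = 0.0347), a call lost without any one of the 4 libraries compared (edgeR adjusted p = 0.0774 to 0.199), with DESeq2 (adjusted p = 0.0538), with total-count scaling (edgeR adjusted p = 0.240) and with no filter (edgeR adjusted p = 0.108).

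**Figure D3:**
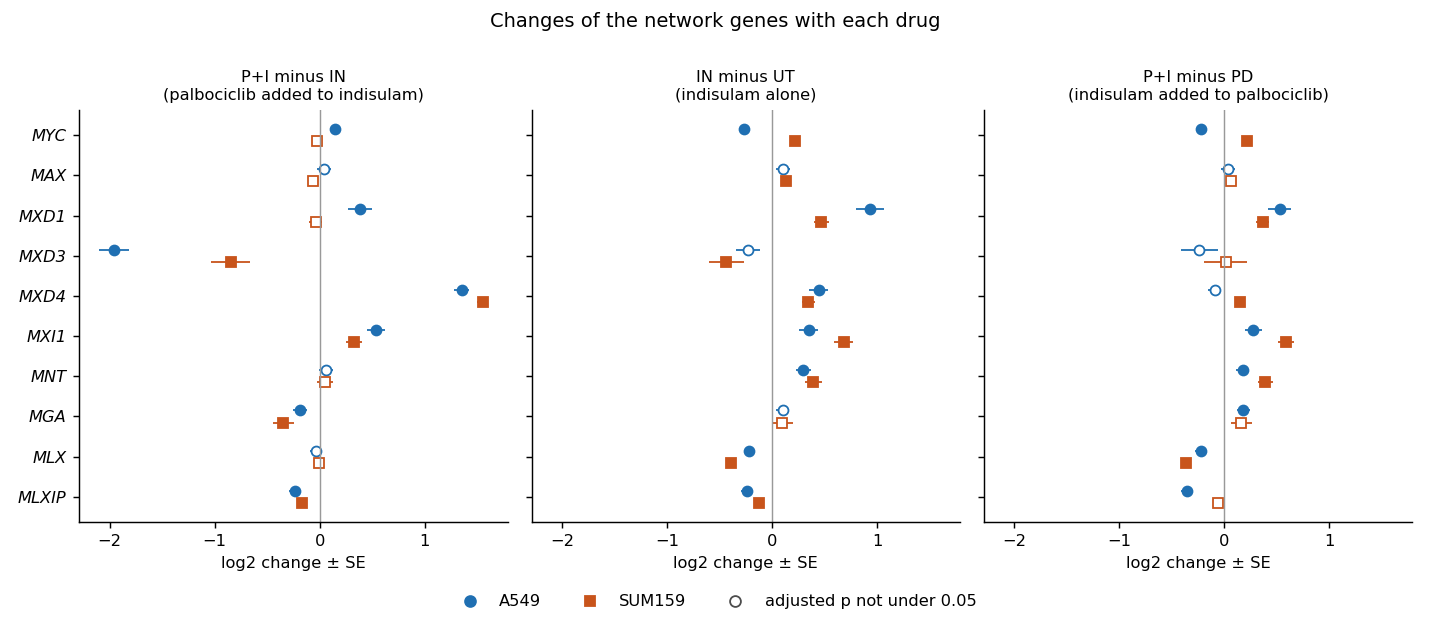
Log2 changes (horizontal axis) with standard errors derived from the edgeR test for the 10 genes in A549 (circles) and SUM159 (squares), for palbociclib added to indisulam, indisulam alone, and indisulam added to palbociclib. Filled symbols passed an adjusted p under 0.05, and MXD4 and MXD3 are the outermost points of the left panel while MYC has opposite signs by line in the other panels.

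Counted over the set, palbociclib added to indisulam changed 7 of the 10 genes in A549 (MYC, MXD1, MXD4 and MXI1 higher, MXD3, MGA and MLXIP lower), where 38.8% of 15744 genes tested passed the same threshold. That A549 count was lower whichever of the 4 libraries compared was left out. Shares over all genes in those fits are not given here. A loss particular to the members therefore cannot be told from a general loss of calls with fewer libraries. In SUM159, palbociclib added to indisulam changed 5 of 10 (MXD4 and MXI1 higher, MXD3, MGA and MLXIP lower). Over all 16080 genes tested there the share was 52.9%, like that of the members. The median log2 change of the members was 0.05 in A549 and -0.03 in SUM159, beside 0.01 in both lines over all genes tested.

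Indisulam alone changed 7 of 10 in A549, 4 higher and 3 lower, against 49.2% of all genes tested. Fewer were called there without the second untreated or the second indisulam library. In SUM159 indisulam alone changed 9 of 10, 6 higher and 3 lower, against 46.9%. Fewer were called there without any one of the 4 libraries compared. The medians were 0.10 and 0.18, beside 0.01 over all genes tested in both lines. Indisulam added to palbociclib changed 7 of 10 in A549 (background 51.5%) and 6 of 10 in SUM159 (background 48.3%). The A549 count was lower without any one of the 4 libraries compared. Shares over all genes in the fits without single libraries are not given here. The combination against untreated cells changed 8 of 10 in A549 (background 57.8%) and 9 of 10 in SUM159 (background 65.3%). Between the lines, the response to indisulam differed for 2 of 10 (background 15%) and that to palbociclib added to indisulam for 2 of 10 (background 14.7%).

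With both drugs against untreated cells, MXD4 stood higher by 1.80 on the log2 scale in A549 (SE 0.0812, edgeR adjusted p = 1.08e-10) and by 1.90 in SUM159 (SE 0.0569, edgeR adjusted p = 1.64e-14). MXD3 changed by -2.18 in A549 (SE 0.147, edgeR adjusted p = 1.03e-08) and by -1.28 in SUM159 (SE 0.182, edgeR adjusted p = 9.17e-06). MXD1 rose by 1.31 in A549 (SE 0.131, edgeR adjusted p = 7.56e-07) and by 0.43 in SUM159 (SE 0.0691, edgeR adjusted p = 3.42e-05). MYC had opposite signs here too, -0.12 in A549 (SE 0.0463, edgeR adjusted p = 0.0351) and 0.20 in SUM159 (SE 0.0330, edgeR adjusted p = 5.03e-05). The A549 value of MYC was lost without either untreated library or without the second combination library (edgeR adjusted p = 0.109, 0.137 and 0.292), with DESeq2 (adjusted p = 0.114), with total-count scaling (edgeR adjusted p = 0.575) and with only the groups compared (edgeR adjusted p = 0.0819). These comparisons share the untreated libraries with the one that picked the set.

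In untreated cells the lines differed in 8 of 10 members (background 76.3% of 17764 genes). MYC was higher in SUM159 by 0.82 on the log2 scale (SE 0.0404, edgeR adjusted p = 1.96e-15), MXD1 by 1.85 (SE 0.111, edgeR adjusted p = 1.13e-13), MXD4 by 1.08 (SE 0.0853, edgeR adjusted p = 2.59e-11), MLX by 0.56 (SE 0.0512, edgeR adjusted p = 3.60e-10) and MAX by 0.26 (SE 0.0597, edgeR adjusted p = 0.000344). MXD3 was lower there, with a log2 difference of -1.47 (SE 0.140, edgeR adjusted p = 9.00e-10), as were MXI1 at -0.64 (SE 0.102, edgeR adjusted p = 3.79e-06) and MNT at -0.53 (SE 0.0830, edgeR adjusted p = 3.27e-06). For MGA and MLXIP the differences were -0.13 (SE 0.0974, edgeR adjusted p = 0.215) and -0.09 (SE 0.0530, edgeR adjusted p = 0.146). Line and culture medium cannot be told apart in this design.

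Levels between genes were set side by side as CPM per kilobase of merged exons, scaled by TMM over all 16 libraries and not within a line as above. In untreated A549 the members ran from MYC (30.5 ± 0.172, SD, n = 2) through MLX (16.3 ± 0.152), MAX (8.41 ± 0.175), MLXIP (7.39 ± 0.0684) and MNT (4.39 ± 0.0890) to MXD3 (2.94 ± 0.199) and MXI1 (2.90 ± 0.306), whose ranges overlapped. MXD4 (2.09 ± 0.157) and MGA (1.93 ± 0.142), also overlapping, came next and MXD1 (0.674 ± 0.0449) last. In untreated SUM159 the order was MYC (54.1 ± 0.434), MLX (24.1 ± 0.410), MAX (10.1 ± 0.435), MLXIP (6.97 ± 0.156), MXD4 (4.42 ± 0.0726), MNT (3.04 ± 0.315), MXD1 (2.43 ± 0.0314), MXI1 (1.86 ± 0.104), MGA (1.76 ± 0.343) and MXD3 (1.06 ± 0.0546). Of these neighbours only MXI1 and MGA overlapped, and the first 4 places were the same in both lines. MXD3 was thus the highest of the MXD1, MXD3, MXD4 and MXI1 group in A549, level with MXI1, and the lowest in SUM159. Per kilobase of the longest transcript, MXD3 (6.42 and 5.83) lay above MXI1 (5.31 and 4.57) in untreated A549. The exon overlap of MXD3 with other genes makes its place uncertain.

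Genes commonly described as raised by MYC, mostly for ribosome production and metabolism, were lower where palbociclib was added to indisulam. Of 32 such genes, 26 fell and 0 rose in A549 (median log2 change -0.27), where 20.1% of all genes tested were lower and 18.6% higher. In SUM159, 31 fell and 0 rose (median -0.44), where 28% of all genes tested were lower and 24.9% higher. MRTO4, a ribosome assembly factor, changed by -0.42 in A549 (SE 0.0518, edgeR adjusted p = 1.93e-05) and -0.71 in SUM159 (SE 0.0377, edgeR adjusted p = 7.09e-11). WDR43, of the small subunit processome, changed by -0.39 (SE 0.0462, edgeR adjusted p = 1.17e-05) and -0.69 (SE 0.0406, edgeR adjusted p = 3.04e-10). EIF4A1, a translation initiation helicase, changed by -0.98 in A549 (SE 0.163, edgeR adjusted p = 0.000268) and -0.35 in SUM159 (SE 0.115, edgeR adjusted p = 0.0158), the latter lost with DESeq2 (adjusted p = 0.0950), with total-count scaling (edgeR adjusted p = 0.0677) and without the second indisulam or second combination library (edgeR adjusted p = 0.0856 and 0.0908), and it shares exons with a read-through gene and was listed at only 5.28 and 7.02 CPM. MYC itself changed by 0.15 and -0.02 in the same comparison. With total-count scaling 21 and 24 of the 32 were lower and 0 higher.

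Indisulam alone was followed by lower levels of 17 of these 32 genes in A549 and 22 in SUM159, with 3 higher in each line, against 25.9% and 24.9% of all genes tested lower, and 23.3% and 21.9% higher. NOLC1, a nucleolar phosphoprotein, changed by -0.69 in A549 (SE 0.0383, edgeR adjusted p = 3.61e-09) and -0.36 in SUM159 (SE 0.0344, edgeR adjusted p = 2.37e-07). CAD, which starts pyrimidine synthesis, changed by -0.64 (SE 0.0441, edgeR adjusted p = 3.35e-08) and -0.58 (SE 0.0489, edgeR adjusted p = 5.76e-08). The A549 count of lower genes was 10 without the first untreated library, the count of higher genes 0 without the first untreated or second indisulam library, and in SUM159 the higher genes numbered 1 without the first indisulam library.

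**Figure D4:**
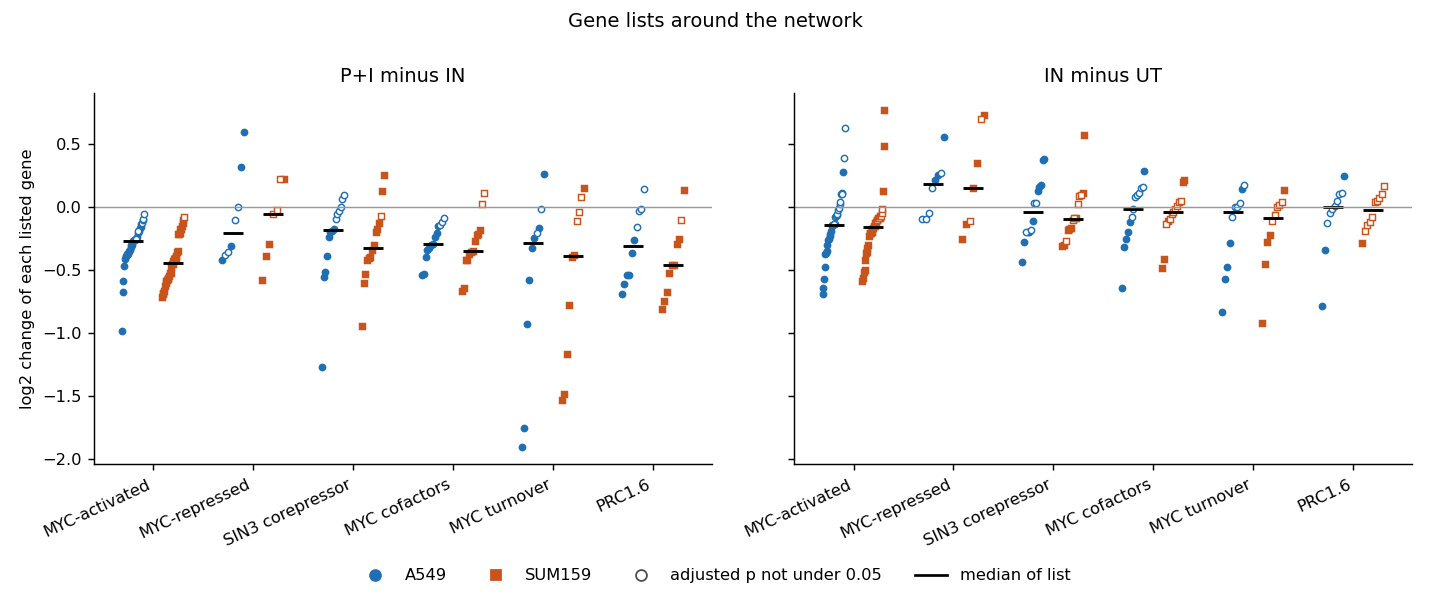
Log2 change (vertical axis) of each gene of 6 lists in A549 (circles) and SUM159 (squares) when palbociclib was added to indisulam (left) and with indisulam alone (right). Filled symbols passed an adjusted p under 0.05 and black bars are list medians, which in the left panel run from -0.46 to -0.06.

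Of genes commonly described as repressed by MYC, 2 of 8 tested rose and 2 fell in A549 when palbociclib was added to indisulam, where 18.6% of all genes tested were higher and 20.1% lower. In SUM159, 1 of 7 rose and 3 fell, where 24.9% of all genes tested were higher and 28% lower. NDRG1, a stress and differentiation gene, rose by 0.59 in A549 (SE 0.0418, edgeR adjusted p = 4.36e-08) and 0.22 in SUM159 (SE 0.0415, edgeR adjusted p = 0.000223). CDKN1B, the CDK inhibitor p27, changed by -0.42 (SE 0.0688, edgeR adjusted p = 0.000248) and -0.39 (SE 0.0899, edgeR adjusted p = 0.00145). CDKN1A, the CDK inhibitor p21, changed by 0.32 in A549 (SE 0.0708, edgeR adjusted p = 0.00269) and -0.29 in SUM159 (SE 0.0557, edgeR adjusted p = 0.000283), and the lines differed by -0.54 (SE 0.0918, edgeR adjusted p = 0.000224). With indisulam alone, 3 of 8 rose and 0 fell in A549 (1 rose without the second untreated or either indisulam library), and 3 of 7 rose and 2 fell in SUM159 (1 fell without any one of the libraries compared), against 23.3% of all genes tested higher and 25.9% lower in A549 and 21.9% and 24.9% in SUM159. The A549 fall with palbociclib added to indisulam was called for 1 gene without the second indisulam or first combination library.

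Of 14 genes of the SIN3 complex that MXD proteins recruit, 8 were lower and 0 higher in A549 (median -0.18) where palbociclib was added to indisulam, against 20.1% of all genes tested lower and 18.6% higher. In SUM159, 11 were lower and 2 higher (median -0.32), against 28% and 24.9%, and 1 was higher without the first indisulam or first combination library. The same shares over all genes apply to the next lists. SAP30, a SIN3 subunit, changed by -1.27 in A549 (SE 0.110, edgeR adjusted p = 4.28e-07) and -0.95 in SUM159 (SE 0.0662, edgeR adjusted p = 2.71e-09). RBBP7, a histone-binding subunit, changed by -0.55 (SE 0.0384, edgeR adjusted p = 3.63e-08) and -0.60 (SE 0.0335, edgeR adjusted p = 1.27e-10). Of 13 MYC cofactors, 10 were lower in A549 and 11 in SUM159, and 0 were higher (medians -0.29 and -0.35). WDR5, a chromatin adaptor for MYC, changed by -0.53 (SE 0.0502, edgeR adjusted p = 1.12e-06) and -0.64 (SE 0.0412, edgeR adjusted p = 8.64e-10). Of 10 genes of PRC1.6, the complex of MGA, 6 were lower and 0 higher in A549 (median -0.31), and 8 lower and 1 higher in SUM159 (median -0.46, with 0 higher without the first indisulam or either combination library). PCGF6, its defining subunit, changed by -0.61 in A549 (SE 0.121, edgeR adjusted p = 0.00103) and -0.81 in SUM159 (SE 0.0819, edgeR adjusted p = 2.90e-07). With indisulam alone, 23.3% of all genes tested were higher and 25.9% lower in A549, and 21.9% and 24.9% in SUM159. The SIN3 list had 5 of 14 higher and 5 lower in A549, but 3 lower without any one library compared, and 2 higher without the second untreated or first indisulam library. In SUM159 it had 2 higher and 6 lower, but 1 higher without the second untreated or either indisulam library, with DESeq2, with its size factors, with other filters or with the replicate block, and 4 higher with total-count scaling. The cofactors had 1 of 13 higher and 5 lower in A549 (2 lower without the second untreated and 3 without the second indisulam library) and 2 higher and 3 lower in SUM159. PRC1.6 had 1 of 10 higher and 2 lower in A549 (0 higher without the first untreated or second indisulam library) and 0 higher and 1 lower in SUM159 (2 lower without the first untreated library).

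Genes that set the stability of MYC protein included some of the largest changes around the network. With palbociclib added to indisulam, 7 of 10 were lower and 1 higher in A549, against 20.1% and 18.6% of all genes tested. In SUM159, 6 were lower and 1 higher (0 without the second indisulam library), against 28% and 24.9%. AURKA, a mitotic kinase that can shield MYC proteins from degradation, changed by -1.91 in A549 (SE 0.0455, edgeR adjusted p = 2.17e-13) and -1.48 in SUM159 (SE 0.0429, edgeR adjusted p = 1.99e-14). CIP2A, an inhibitor of the phosphatase PP2A, changed by -1.76 (SE 0.0641, edgeR adjusted p = 1.52e-11) and -1.53 (SE 0.0579, edgeR adjusted p = 6.73e-13). USP37, a deubiquitinase of MYC, changed by -0.93 (SE 0.0894, edgeR adjusted p = 1.34e-06) and -1.17 (SE 0.0604, edgeR adjusted p = 5.01e-11). AURKA in particular is a gene of dividing cells, and MYC protein was not measured. With indisulam alone, 4 were lower and 1 higher in each line, against 25.9% and 23.3% of all genes tested in A549 and 24.9% and 21.9% in SUM159. The higher gene was lost in SUM159 without any one of the libraries compared, and in A549 without either untreated or the second indisulam library.

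Among relatives outside the set, MYCN averaged 0.0173 CPM in A549 and 0.0167 CPM in SUM159, below the level of 3 counts, and MYCL 1.78 and 0.126 CPM. MLXIPL, the paralogue of MLXIP known as ChREBP, averaged 3.57 CPM in A549 and 2.68 CPM in SUM159. With indisulam alone it changed by -0.92 in A549 (SE 0.171, edgeR adjusted p = 0.000470) and by 1.02 in SUM159 (SE 0.287, edgeR adjusted p = 0.00788), the latter lost without the second untreated or first indisulam library (edgeR adjusted p = 0.0794 and 0.0534). The lines differed by 1.94 (SE 0.332, edgeR adjusted p = 0.000280). The addition of palbociclib to indisulam gave -0.13 in A549 (SE 0.193, edgeR adjusted p = 0.648) and 1.29 in SUM159 (SE 0.187, edgeR adjusted p = 1.77e-05).

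Of 4 glucose-responsive genes described as raised by MLXIP with MLX, TXNIP averaged 93.0 CPM in SUM159 and 0.620 CPM in A549, ARRDC4 17.3 and 1.12 CPM, and HK2 134.1 and 8.05 CPM. In SUM159, indisulam alone raised TXNIP, a brake on glucose uptake, by 0.45 (SE 0.0515, edgeR adjusted p = 1.88e-06) and ARRDC4, its relative, by 0.57 (SE 0.0790, edgeR adjusted p = 1.67e-05), while KLF10 changed by -0.23 (SE 0.0466, edgeR adjusted p = 0.000700) and HK2 by 0.02 (SE 0.0389, edgeR adjusted p = 0.764). In A549 the same comparison gave 0.09 for TXNIP (SE 0.406, edgeR adjusted p = 0.863), -0.07 for ARRDC4 (SE 0.429, edgeR adjusted p = 0.898), -0.14 for KLF10 (SE 0.0573, edgeR adjusted p = 0.0558) and -0.42 for HK2 (SE 0.128, edgeR adjusted p = 0.0135). The HK2 call was lost with DESeq2 (adjusted p = 0.0624) and without the first untreated or second indisulam library (edgeR adjusted p = 0.189 and 0.139). Palbociclib added to indisulam changed 4 of the 4 in SUM159, with ARRDC4 higher and TXNIP, KLF10 and HK2 lower, where 52.9% of all genes tested passed. The TXNIP call was lost with total-count scaling (-0.12, edgeR adjusted p = 0.0515), and that of ARRDC4 without the second indisulam or second combination library (edgeR adjusted p = 0.0588 and 0.0503). In A549, where 38.8% of all genes tested passed, 1 of 4 did so, KLF10 at 0.16 (SE 0.0565, edgeR adjusted p = 0.0378). This was lost with DESeq2 (adjusted p = 0.0785), with only the groups compared (edgeR adjusted p = 0.0593) and without the second indisulam or second combination library (edgeR adjusted p = 0.401 and 0.0826).

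The genes whose level followed MXD4 most closely over the 8 libraries of each line, among 9652 genes averaging 5 CPM or more in both, were SPACA9 (lower of the 2 Pearson correlations of log2 CPM 0.984), IQSEC2 (0.983), EHD3 (0.983), PNRC1 (0.980) and GSN (0.980), and 42 genes reached 0.95. PNRC1, a nuclear receptor coactivator, went from a mean of 19.3 CPM to 45.3 CPM with palbociclib in A549 and from 16.9 to 49.4 CPM in SUM159. GSN, the actin-severing protein gelsolin, went from 17.4 to 27.7 CPM and from 30.0 to 51.3 CPM. These libraries are 4 treatment groups with 2 libraries each, so the correlations mostly reflect group means and are given as a description. Among the members, MXI1 was the most like MXD4, with correlations of 0.90 in A549 and 0.63 in SUM159.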

How the data were processed

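RNA from 16 libraries (8 groups with 2 libraries each) of A549 and SUM159 cells was prepared with a stranded mRNA kit. Per the labels, reads were aligned to GRCh38 with HISAT2 2.2.1 and counted with HTSeq, and the deposited values are raw counts per Ensembl gene. The annotation release and the strand setting of the counting are not given in the sources used here. Symbols, coordinates and exon lengths came from GENCODE 44 (58207 of 58676 gene IDs matched). The network genes and the gene lists were chosen with earlier results of these data known. Reads in no feature, ambiguous or aligned more than once were left out of library sizes.

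Counts were tested with the quasi-likelihood test of edgeR 4.0.16 in R 4.3.3, with TMM scaling, filterByExpr, 1 coefficient per group over the 8 libraries of a line (all 16 for comparisons between lines) and Benjamini-Hochberg adjustment over all genes tested at a threshold of 0.05. Each SE is the absolute log2 change divided by the square root of the F statistic of that test. DESeq2 1.42.0, other scalings and filters, a replicate block, fits of only the groups compared, and leaving out each library were alternatives. CPM are TMM-scaled within a line, and levels between genes are compared per kilobase of merged exons after TMM scaling over all 16 libraries. Named genes were all 10 members, up to 3 genes per list with the largest log2 change among those past the threshold with a mean of at least 5 CPM (lists under 5 genes whole), and the 5 genes most like MXD4. The text describes a selection of the list genes so named. On counts simulated for palbociclib added to indisulam with a log2 change of 1, edgeR recovered 84.8% of changed genes in A549 (15390 genes) and 79.3% in SUM159 (15689 genes), and 10.2% and 8.72% of its calls were false, above the nominal rate, against 3.77% and 2.00% for DESeq2. Libraries of a group differed beyond counting noise (chi-square per degree of freedom 1.65 to 10.0). Depth sets counting error only.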

Additional observations from a re-analysis of the deposited data

Results flagged for a closer look

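The response of MYC to indisulam differed between the lines by 0.49 on the log2 scale, SUM159 minus A549, by the interaction test in edgeR, with MYC lower in A549 and higher in SUM159. MXD1 differed in the same response by -0.46, the rise being smaller in SUM159. In the response to palbociclib added to indisulam, MXD1 differed by -0.36 and MXD3 by 1.18, the latter because MXD3 fell less in SUM159. The indisulam difference of MXD1 was lost under 3 of 7 other settings and without 7 of 8 single libraries, its difference for palbociclib added to indisulam under 4 of 7 and without 6 of 8, and that of MXD3 without 1 library. Reads assigned to no annotated feature, which the comparisons do not use, were more frequent with indisulam or the combination, at no less than 4.83% of reads in A549 and 5.7% in SUM159, than in untreated libraries, at no more than 4.57% and 3.99%. With palbociclib alone they were 4.17% and 4.71% in A549 and 4.96% and 5.45% in SUM159.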

How the results depend on the processing

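MXD4, MXD3 and MXI1 kept their direction and call for palbociclib added to indisulam under every alternative run, as did MXD4 for indisulam alone and MYC for the difference between lines in the indisulam response. Total-count scaling moved the median of all genes in SUM159 by 0.105 for palbociclib and 0.148 for the combination against untreated cells, and the share of higher among all genes called (A549, then SUM159) from 48.1% to 61.2% and 47.1% to 62.4% for palbociclib added to indisulam, from 51.1% to 62.4% and from 46.8% to 62.5% for palbociclib, from 47.4% to 57.8% and from 49.3% to 64.3% for the combination, and from 46.8% to 57.9% in SUM159 for indisulam. For the difference between lines in the response to palbociclib added to indisulam, this share was 68.6%, 44.5% with DESeq2 size factors, and 30.1% with at least 10 counts in every library, where the median turned from 0.0624 to -0.0717. Without single libraries the members called numbered 3 to 5 in A549 and 4 to 5 in SUM159 for palbociclib added to indisulam, 4 to 8 and 6 to 7 for indisulam, 3 to 6 and 5 to 7 for indisulam added to palbociclib, 7 to 8 and 8 to 9 for the combination, and 8 to 9 for untreated lines. The difference between lines was called for 1 member with DESeq2, total-count scaling or no filter, and 1 to 2 without single libraries, for indisulam, and for 1 with no filter or the replicate block, and 0 to 3 without single libraries, for palbociclib added to indisulam (0 without the first SUM159 combination library). The replicate numbers did not pair the samples (correlations of deviations -0.114 to 0.114), and with them as a replicate block the other counts stayed within 1 of those reported (9 in A549 for the combination). For P+I against PD the crossed pairing, added after seeing the data, gave 7 members in each line. Values that turned sign had not passed the threshold. With total-count scaling these were, for palbociclib added to indisulam, MLX 0.0231 and HK2 0.0361 in A549 and MYC 0.0706, MAX 0.0290, MXD1 0.0559 and MLX 0.0845 in SUM159, MGA 0.00171 for the combination in A549, and MLXIP 0.0132 between untreated lines. With at least 10 counts in every library, MYC was 0.0279, MXD1 0.0135 and MLX 0.0419 for palbociclib added to indisulam in SUM159. There MLX was 0.00444 with DESeq2 and 0.00399 with its size factors, and HK2 for indisulam -0.000255 and -0.000262. MXD3 for indisulam added to palbociclib in SUM159 was -0.0145 with no filter and -0.000337 with the replicate block. Without single libraries the signs were mixed for palbociclib added to indisulam in A549 for MAX (-0.0458 to 0.13), MNT (-0.0193 to 0.17), HK2 (-0.15 to 0.10) and TXNIP (-0.0664 to 0.53), and in SUM159 for MNT (-0.0433 to 0.13) and MLX (-0.0660 to 0.0437). They were also mixed for indisulam for ARRDC4 (-0.70 to 0.93) and TXNIP (-0.23 to 0.38) in A549 and MGA (-0.0817 to 0.30) in SUM159, for indisulam added to palbociclib for MAX (-0.0273 to 0.10) in A549 and MXD3 (-0.19 to 0.28) in SUM159, and between untreated lines for MGA (-0.34 to 0.0555) and MLXIP (-0.11 to 0.0145). The Spearman correlation of EHD3 with MXD4 was 0.69. By longest transcript MXI1 and MXD1 exchanged places in untreated SUM159, and MXD3 and MXI1 did not overlap in untreated A549. The causes of these changes were not tested.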
